A study of Mus musculus with 12 samples.

Results

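The 10 genes described here encode the proteins by which the liver senses, carries, stores and releases iron and moves or breaks down heme. They were taken by symbol from the 24421 gene symbols of the count files, and all 10 were present. In the order of their roles they are Hamp and Hamp2 (the 2 mouse hepcidin genes), Tfrc and Tfr2 (the transferrin receptors), Fth1 and Ftl1 (the ferritin heavy and light chains), Slc40a1 (the iron exporter ferroportin), Hmox1 (heme oxygenase 1), Slc48a1 (the heme transporter HRG1) and Trf (transferrin).

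The 12 RNA libraries were made from 1 tumor and from non-tumoral liver tissue of each of 6 aged mice on a standard diet. In p21+/Tert mice the Cdkn1a (p21) promoter drives wild-type Tert, and in p21+/TertCi mice it drives a catalytically inactive Tert, so the allele is active where that promoter is and every library carries 1 of the 2 alleles. Tumors carry the study's names, which give the genotype, HCC or HCA for hepatocellular carcinoma or adenoma, and the mouse, although the study's histology lists the tumor of T-HCC663 as an adenoma, and the non-tumoral livers by NT and the number of the same mouse. T-HCA992, T-HCC941, T-HCC663 and T-HCC662 and their 4 livers came from p21+/Tert mice, and TCi-HCC981 and TCi-HCA984 and their 2 livers from p21+/TertCi mice. Livers of wild-type mice were not analysed here. By the mutations that the study found, T-HCC662 and T-HCC663 are Ctnnb1 tumors, T-HCC941 and TCi-HCC981 carry Egfr or Hras mutations, and T-HCA992 and TCi-HCA984 carry neither. Both Ctnnb1 tumors come from p21+/Tert mice, so driver class and genotype cannot be fully told apart. A liver whose label matches the number of no tumor was taken as NT662 by elimination.

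Hepcidin is a peptide hormone that hepatocytes secrete, and it makes ferroportin leave the cell surface, so that less iron enters the blood from macrophages, hepatocytes and the gut. Its transcription rises with iron through bone morphogenetic protein (BMP) and SMAD signals, for which Tfr2 and Hfe act as sensors, and with inflammation through interleukin 6 and STAT3. Ferritin and Tfrc are set largely after transcription, by iron regulatory proteins that bind hairpins in their messenger RNA. In ferritin this blocks translation, so that its RNA level is not a readout of its protein, and in Tfrc it stabilizes the RNA.

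Hamp lies on GRCm38 chromosome 7 from 30942368 to 30944032 and Hamp2 from 30922372 to 30924681 of the same chromosome, both on the minus strand. Their spliced transcripts are 94.6% identical over the aligned bases.

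The hairpins that the iron regulatory proteins bind are shown because their number and place differ between the members. Iron-responsive elements were searched for in the GENCODE coding transcripts of the members as a bulged C, 5 paired bases, a loop (in capitals) and 5 paired bases. The loop was CAGTG followed by A, C or T, and G-T pairs were allowed. The following were found (GRCm38, Tfrc and Fth1 on the plus strand, Ftl1 and Slc40a1 on the minus strand).
Tfrc, 3′ UTR (chr16:32631225-32631241): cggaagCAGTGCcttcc
Tfrc, 3′ UTR (chr16:32631604-32631620): cgggagCAGTGTcttcc
Tfrc, 3′ UTR (chr16:32631669-32631685): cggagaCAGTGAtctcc
Tfrc, 3′ UTR (chr16:32631716-32631732): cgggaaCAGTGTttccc
Fth1, 5′ UTR (chr19:9982738-9982754): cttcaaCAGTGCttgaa
Ftl1, 5′ UTR (chr7:45459785-45459801): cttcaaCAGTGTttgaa
Slc40a1, 5′ UTR (chr1:45925471-45925487): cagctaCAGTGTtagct
The 4 elements of Tfrc, which stabilize its messenger RNA when bound, lie close together near the end of the gene, whereas those of Fth1, Ftl1 and Slc40a1, which block translation when bound, stand alone. No element of this exact form was found in the other 6 members. Those found lay in 1 of 3 coding transcripts of Tfrc, 4 of 5 of Fth1, 2 of 3 of Ftl1 and 1 of 4 of Slc40a1.

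Levels are CPM, the counts per 1000000 reads of a library, with library sizes scaled by edgeR's TMM method, and totals ran from 14571716 to 23932529 counted reads per liver and from 17471387 to 26170661 per tumor. Differences were tested with edgeR's quasi-likelihood test over all genes that passed its filter on low counts, and a gene is called higher or lower where the Benjamini-Hochberg adjusted p is under 0.05. A log2 difference is the fold change of the fit on the log2 scale, with its standard error (SE), and ± after a mean is the SD between mice. All 10 members passed the filter. The hepatocyte markers Alb, Apoa1 and Ttr, among others, summed to between 37579 and 58831 CPM in livers. In bulk tissue, fewer cells of a type and less RNA per cell cannot be told apart.

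Per kilobase of transcript, the members spanned a wide range in non-tumoral livers. Trf was highest, at 5569 ± 1449.9 CPM per kb, followed by Hamp at 4187 ± 1476, Ftl1 at 3277 ± 979 and Fth1 at 1193 ± 241 (n = 6 each). Trf, Hamp and Ftl1 overlapped in their ranges, and Fth1 lay below all 3 and above Tfr2 in every liver. Tfr2 came next at 232 ± 45.3 CPM per kb, then Hamp2 at 61.2 ± 55.1 and Slc40a1 at 46.3 ± 13.8. Slc48a1 (26.5 ± 1.29), Hmox1 (17.8 ± 10.6) and Tfrc (5.95 ± 1.77) were lowest, and each of these overlapped with a neighbour in the order. The hepatocyte receptor Tfr2 exceeded the ubiquitous receptor Tfrc in every liver. In tumors Hamp stood at 329 ± 516 CPM per kb (n = 6), below Trf at 10329.8 ± 5652, Ftl1 at 2848 ± 1788 and Fth1 at 1314 ± 385.

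Across all tumors and livers, 1476 of 13822 genes were called (10.7%), and among the members 1 was higher and 3 were lower, 4 of 10. The higher member was Slc48a1 and the lower ones were Hamp, Hamp2 and Tfr2. The median log2 difference was 0.1 over the members and 0.01 over all genes tested. In the comparison with the liver of the same mouse, Hamp, Hamp2 and Tfr2 were lower in 6 of 6 tumors and Slc48a1 was higher in 6 of 6 mice, whereas Slc40a1 was higher in 3 and lower in 3.

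**Figure D1:**
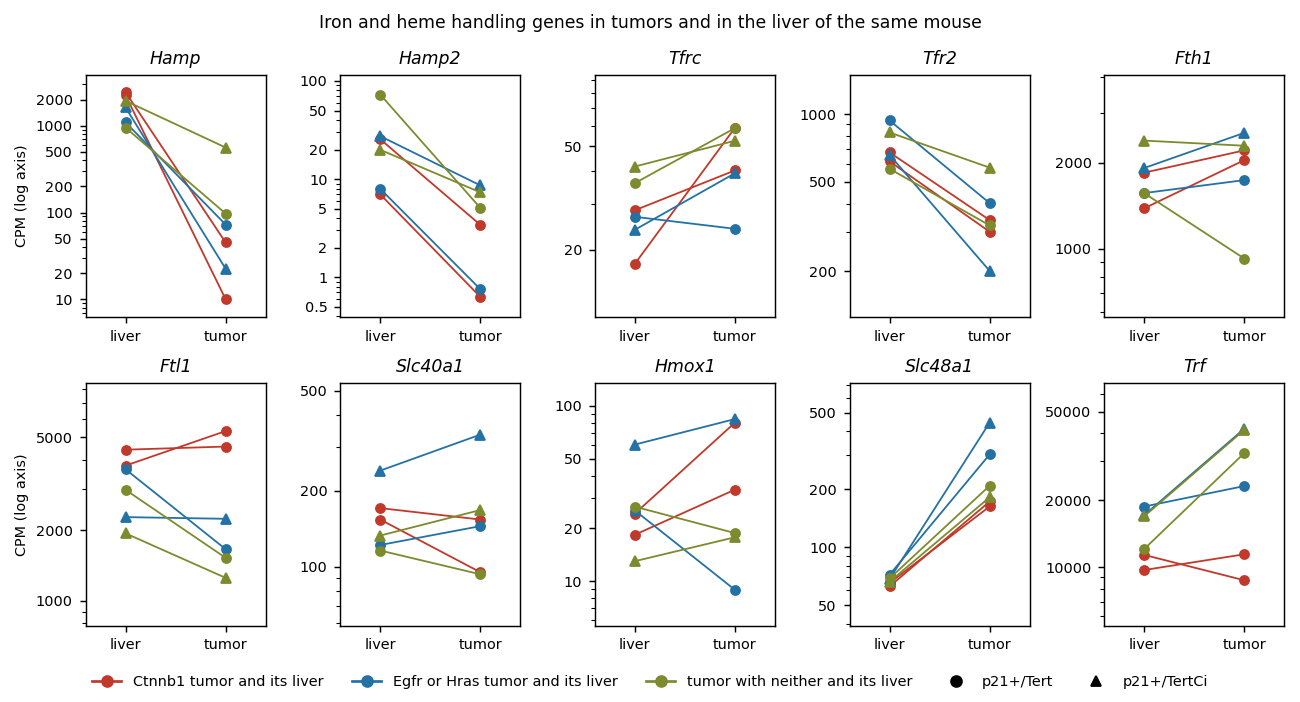
Level of each member in CPM (log axis) in the non-tumoral liver and in the tumor of the same mouse, joined by a line; color gives the driver class of the tumor and the symbol the genotype. Hamp fell and Slc48a1 rose along every line, and the livers lay between 62.6 and 72 CPM for Slc48a1.

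Hamp, the main hepcidin gene, ranged from 953 CPM to 2439 CPM in the 6 non-tumoral livers, with a median of 1783. In tumors it was 10 CPM in T-HCC662, 22.5 in TCi-HCC981, 45.1 in T-HCC663, 72.6 in T-HCC941, 97.2 in T-HCA992 and 562 in TCi-HCA984. Every tumor lay below every liver, and TCi-HCA984 was the tumor nearest to the livers. The log2 difference was -3.67 (SE 0.86, adjusted p = 0.0167), a 12.7-fold difference. Against its own liver, TCi-HCA984 held 3.45-fold less, T-HCA992 9.8-fold less, T-HCC941 15.1-fold less, T-HCC663 54.1-fold less, TCi-HCC981 72.1-fold less and T-HCC662 225-fold less. The drop thus varied by more than an order of magnitude between mice, more than the level in the livers did.

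Hamp2, the second hepcidin gene, was lower throughout, between 6.99 and 72.7 CPM in livers with a median of 22.7. It was 0.631 CPM in T-HCC662, 0.756 in T-HCC941, 3.42 in T-HCC663, 5.09 in T-HCA992, 7.33 in TCi-HCA984 and 8.63 in TCi-HCC981. The ranges overlapped slightly, since the highest tumors exceeded the lowest livers (6.99 in NT662 and 7.96 in NT941), and the log2 difference was -2.63 (SE 0.71, adjusted p = 0.0327). Without any 1 of 5 libraries (NT663, NT992, T-HCC663, T-HCC941 and T-HCA992) this call was lost, and the largest adjusted p was 0.0798, without NT992. Hamp2 counts were 0.311% to 7.63% of the Hamp counts in livers, and 38.3% in TCi-HCC981, where Hamp was 72.1-fold lower than in the own liver and Hamp2 fell from 27.4 to 8.63 CPM. Of the words of 50 bases in Hamp transcripts, 16.6% also occur in Hamp2, so part of the reads could be split between them. With both genes summed to 1 feature, Hamp stayed called in this comparison.

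The genes that report or carry the signals to hepcidin were measured as a list of 23 genes, all tested. None was higher in tumors and 2 were lower, which as a share of the list is no more than the 10.7% of all genes called. The median log2 difference was -0.27, beside 0.01 over all genes. Smad7, an inhibitory SMAD that BMP signals induce, fell by 0.99 on the log2 scale (SE 0.3, adjusted p = 0.0483) and was lower in 6 of 6 tumors. Cebpa, a hepatocyte transcription factor that binds the Hamp promoter, had a log2 difference of -0.8 (SE 0.2, adjusted p = 0.0241) and was also lower in all 6. Both calls were close to the threshold, and of the 12 fits that each left out 1 library Smad7 was called in 2 and Cebpa in 9. Atoh8 and Smad6, further genes that BMP signals induce, were not called, but every tumor was lower than its own liver. Atoh8 was 29.5 to 44.8 CPM in livers and 0.451 CPM in T-HCC662, the tumor with the lowest Hamp, against 8.37 to 24.2 in the other tumors. Id1, another such gene, was higher in 2 tumors than in their own livers and lower in 4.

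The acute phase genes set 2 livers apart, in which Hamp did not stand out. The sum of 8 acute phase genes was 51729.5 CPM in NT941 and 42313 CPM in NT984, against 3324 to 5435 CPM in the other 4 livers. The serum amyloid gene Saa1 was 19183 CPM and 11406 CPM in them, against 71.9 to 584 CPM in the other 4 livers. Hamp was 1095 CPM and 1939.8 CPM in these 2 livers, inside the range of the others. Without these livers, Hamp (log2 difference -3.74, adjusted p = 0.0462) and Hamp2 (-2.92, adjusted p = 0.0483) were still called. Lcn2, the siderophore-binding lipocalin that is also an acute phase gene, was 4776 CPM in NT984 and 5422 CPM in TCi-HCA984, and it was higher than in the own liver in 6 of 6 tumors without passing the test (adjusted p = 0.883).

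**Figure D2:**
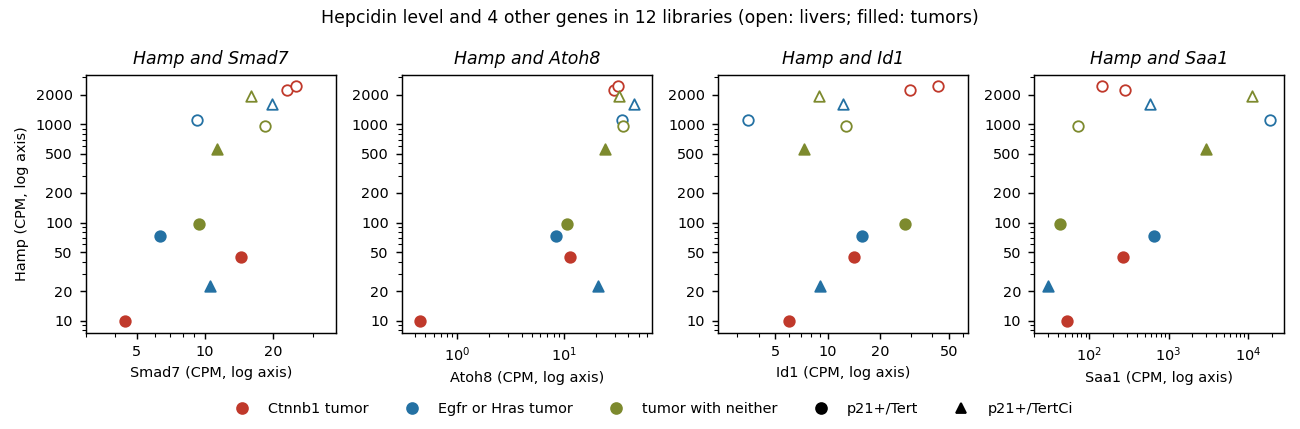
Hamp in CPM against Smad7, Atoh8, Id1 and Saa1 in CPM (all log axes) in 12 libraries, with livers as open and tumors as filled symbols. Saa1 ran from 71.9 to 19183 CPM among the livers while Hamp stayed between 953 and 2439.

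Tfr2, the receptor by which hepatocytes sense iron-loaded transferrin, was 571 to 936 CPM in livers, with a median of 667. Among tumors it was 201 CPM in TCi-HCC981, 300 in T-HCC663, 320.2 in T-HCA992, 338 in T-HCC662, 402 in T-HCC941 and 578 in TCi-HCA984. Only TCi-HCA984, again the tumor nearest to the livers, reached the range of the livers. The log2 difference was -1.01 (SE 0.26, adjusted p = 0.0249), a 2.01-fold difference. The call was lost without the acute phase livers NT941 and NT984 together (adjusted p = 0.114), without both libraries of the mouse of TCi-HCC981 (adjusted p = 0.0573), without NT941 alone (adjusted p = 0.0583) and without T-HCA992 alone.

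Tfrc, the receptor by which most cells take up transferrin iron, was 17.7 to 41.8 CPM in livers and 24.1 to 58.9 CPM in tumors. It was higher than in the own liver in 5 of 6 tumors, by up to 3.32-fold in T-HCC662, and T-HCC941 was the exception. The ranges overlapped and the difference did not pass the test (log2 difference 0.64, SE 0.25, adjusted p = 0.115).

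The ferritin genes did not pass the test between tumors and livers. Fth1, whose chain oxidizes iron for storage, was 1388 to 2395 CPM in livers and 925 to 2550 CPM in tumors, with a log2 difference of 0.13 (SE 0.28, adjusted p = 0.814). Ftl1, the light chain, was 1941 to 4417 CPM in livers and 1253 to 5304 CPM in tumors (log2 difference -0.21, SE 0.41, adjusted p = 0.784). The spread of Ftl1 among tumors was larger than among livers, with an SD of 1730.4 CPM against 948. The 2 Ctnnb1 tumors were the highest, as described below. Ftl1 counts carry an uncertainty of mapping, since 58.4% of its words of 50 bases occur in transcripts of 17 other annotated genes, as do 59.4% of those of Trf, nearly all in the annotated gene Gm20425.

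Slc40a1 was 116 to 241 CPM in livers and 93.3 to 335 CPM in tumors, and Hmox1 was 13 to 60.2 CPM and 8.91 to 84.2 CPM. Neither gene passed the test (log2 difference 0.07, SE 0.31, adjusted p = 0.91 for Slc40a1 and 0.53, SE 0.53, adjusted p = 0.572 for Hmox1), and Slc40a1 changed sign in several settings. For both genes the highest tumor was TCi-HCC981 and the highest liver was that of the same mouse, NT981. Kupffer cells and other macrophages, which take up aged red cells, are known to express both genes. The sum of 10 macrophage markers was 169 to 1717 CPM in livers and 172 to 1302 CPM in tumors, and was highest in NT981 among livers and in TCi-HCC981 among tumors. Without this mouse the log2 difference of Slc40a1 was -0.09. T-HCC663, with the next highest Hmox1 at 80.4 CPM, had the next highest marker sum among tumors at 1181 CPM. The part of macrophages in these levels was not tested. None of the 10 markers was called in tumors against livers, and they did not move together within a tumor. TCi-HCC981 held 163 CPM of Clec4f, 427 of Cd5l and 79.6 of Vsig4, each above all livers but NT981, and 0.462 CPM of Marco, below all livers. In T-HCC662 Marco was at 0 and Clec4f at 2.52 CPM.

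Slc48a1, which moves heme from lysosomes into the cytosol, was the member with the smallest spread among livers, 62.6 to 72 CPM with a median of 67.3. In tumors it was 163 CPM in T-HCC663, 173 in T-HCC662, 182 in TCi-HCA984, 209 in T-HCA992, 304 in T-HCC941 and 445 in TCi-HCC981. The lowest tumor lay far above the highest liver, and the log2 difference was 1.87 (SE 0.25, adjusted p = 0.00113). Each tumor exceeded its own liver by 2.51-fold to 6.51-fold. This was the call with the smallest adjusted p among the members, and it held without each of the 12 libraries in turn (adjusted p between 0.000675 and 0.00494).

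Among 13 other genes of heme scavenging, transport and breakdown, 1 was called in tumors against livers. Flvcr1, a heme exporter and choline transporter, was 2 to 5.54 CPM in livers and 6.95 to 15.3 CPM in tumors, with no overlap, and the log2 difference was 1.64 (SE 0.29, adjusted p = 0.00431). It was higher than in the own liver in 6 of 6 mice, by 2.14-fold to 5.31-fold. Hpx and Hp, the plasma scavengers of heme and hemoglobin, were lower than in the own liver in 5 of 6 tumors but were not called, and the median of the list was -0.05 on the log2 scale. Iron transport genes that fell were Steap2, a metalloreductase (log2 difference -2.31, SE 0.41, adjusted p = 0.00431), and Mcoln1, an endolysosomal cation channel that conducts iron (log2 difference -0.67, SE 0.18, adjusted p = 0.033), the only 2 called of 13 genes tested for iron uptake, reduction and export. Steap2 was called without each of the 12 libraries in turn and Mcoln1 in 6 of the 12 fits. Of 11 tested genes of iron sensing, storage and mitochondrial iron, Abcb10, a mitochondrial transporter, was lower (log2 difference -0.83, SE 0.24, adjusted p = 0.0438, in 2 of these 12 fits) and none was higher. For these lists the counts of called genes were close to the 10.7% of all genes called in this comparison.

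Trf, the plasma carrier that hepatocytes secrete, was 9702 to 18725 CPM in livers and 8721 to 41962 CPM in tumors. It was higher than in the own liver in 5 of 6 tumors, by 2.7-fold in T-HCA992 and by 2.45-fold in both TCi-HCC981 and TCi-HCA984. T-HCC663 was lower than its liver and T-HCC662 and T-HCC941 were at most 1.24-fold higher, and the difference over all tumors was not called (log2 difference 0.89, SE 0.48, adjusted p = 0.261).

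**Figure D3:**
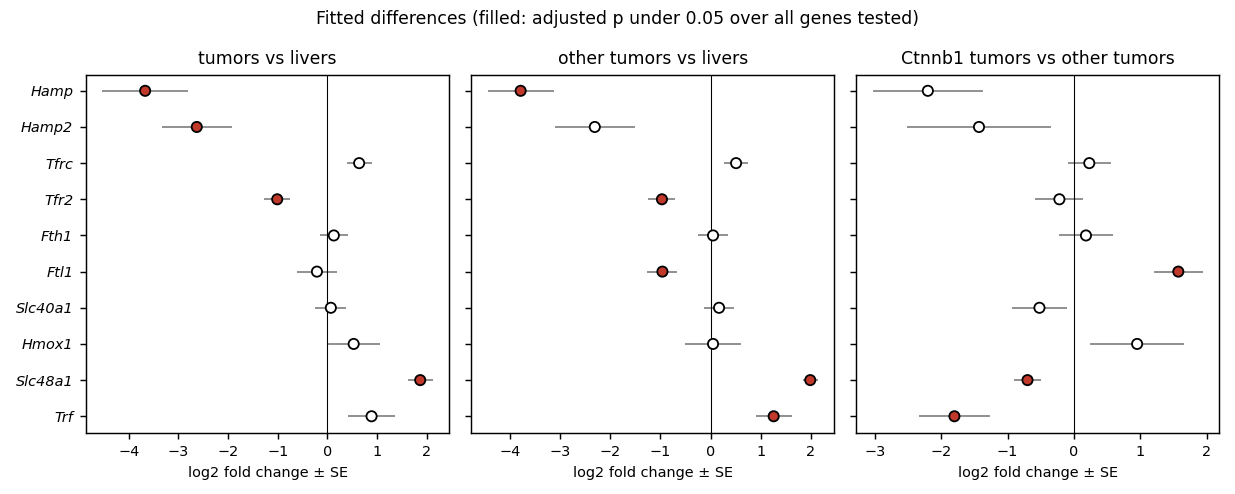
Fitted log2 fold changes of the 10 members (points, with bars of 1 SE) for all tumors against livers, for tumors without Ctnnb1 mutation against livers, and for Ctnnb1 tumors against the other tumors; filled points have an adjusted p under 0.05. Slc48a1 was filled in all 3 panels, whereas Ftl1 and Trf were filled only where the driver classes were separated.

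Within p21+/Tert mice (4 tumors and 4 livers), 986 of 15182 genes were called (6.49%), with 1 member higher and 2 lower. The log2 difference of Hamp was -4.92 (SE 0.97, adjusted p = 0.0159), that of Hamp2 -3.5 (SE 0.86, adjusted p = 0.0361) and that of Slc48a1 1.64 (SE 0.29, adjusted p = 0.01). Tfr2, at -1.06 (SE 0.33, adjusted p = 0.08), was not called. Without NT662, neither Hamp (adjusted p = 0.051) nor Hamp2 (0.0518) was called, and Hamp2 was called in 6 of the 12 fits that left out 1 library.

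Within p21+/TertCi mice (2 tumors and 2 livers), no gene was called by edgeR (0% of 15182), and 1618 had an unadjusted p under 0.05. The log2 differences of the members called elsewhere had the same signs, at -2.61 (SE 1.23) for Hamp, -1.58 (SE 1.12) for Hamp2, -0.94 (SE 0.47) for Tfr2 and 2.2 (SE 0.41) for Slc48a1. Slc48a1 had an adjusted p of 0.2. DESeq2 called 375 genes here, 1 of them a member. The interaction of genotype and tumor called no gene by edgeR (0% of 15182, with 556 at an unadjusted p under 0.05) and 10 by DESeq2. For Hamp it was 2.31 (SE 1.45), with an approximate 95% interval from -0.53 to 5.14, and without TCi-HCA984 it was -1.42, so its direction rested on that tumor. The interaction of Hamp2 was 1.92 (SE 1.37), that of Slc48a1 0.56 (SE 0.48) and that of Tfr2 0.12 (SE 0.57). A difference between active and inactive Tert in these genes was therefore not detected, and intervals of this width do not show that the genotypes were alike. Between the livers of the 2 genotypes edgeR called no gene either (0% of 15182, with 756 at an unadjusted p under 0.05) and DESeq2 42, none of them a member. The log2 differences of the members, p21+/TertCi over p21+/Tert, ran from -0.8 for Ftl1 to 0.64 for Hmox1.

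Against the 6 livers, the 2 Ctnnb1 tumors had 1245 of 15182 genes called (8.2%), with 1 member higher and 1 lower, and the 4 other tumors had 3459 called (22.8%), with 2 members higher and 3 lower. The 2 comparisons share the 6 livers. Hamp was lower in both, with a log2 difference in Ctnnb1 tumors of -5.99 (adjusted p = 0.00545, SE 1.02) and in the others of -3.79 (adjusted p = 0.00234, SE 0.66). The former call was lost without T-HCC662 (adjusted p = 0.0534). Slc48a1 was higher in both, at 1.3 (adjusted p = 0.00147, SE 0.18) and 1.99 (adjusted p = 1.72e-05, SE 0.15). In the tumors without Ctnnb1 mutation, Tfr2 was lower (-0.97, SE 0.27, adjusted p = 0.0248), as was Ftl1 (-0.96, SE 0.3, adjusted p = 0.0385), and Trf was higher (1.26, SE 0.36, adjusted p = 0.0273). Of the 12 fits that left out 1 library, Tfr2 was called in 9, Trf in 6 and Ftl1 in 4. With the mouse as a block, Ftl1 (adjusted p = 0.15) and Trf (adjusted p = 0.117) were no longer called there and Hamp2 was (adjusted p = 0.0106, against 0.0563 without the block). In Ctnnb1 tumors Hamp2 was called with the block as well (adjusted p = 0.0411, against 0.077).

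The direct comparison of the 2 Ctnnb1 tumors with the 4 others called 1895 of 15182 genes (12.5%) and 3 of 10 members, 1 higher and 2 lower. Ftl1 was 4556 and 5304 CPM in the Ctnnb1 tumors against 1253 to 2239 CPM in the others, with no overlap (log2 difference 1.57, SE 0.37, adjusted p = 0.022). The livers of these mice, NT662 at 3778 and NT663 at 4417 CPM, were also the highest of the 6 for Ftl1, and in the fit blocked on the mouse the log2 difference was 0.95 (adjusted p = 0.367). Trf was 8721 and 11419 CPM in the Ctnnb1 tumors against 23156 to 41962 CPM in the others (log2 difference -1.8, SE 0.53, adjusted p = 0.048). Slc48a1 was 163 and 173 CPM against 182 to 445 CPM (log2 difference -0.7, SE 0.21, adjusted p = 0.0471). The groups did not overlap for these 3 genes. With 2 tumors against 4 that can arise by chance, and its share over all genes was not measured. In the 12 fits that left out 1 library Ftl1 was called in 8, Trf in 2 and Slc48a1 in 1. Blocking on the mouse left 441 genes and none of the members called, at an adjusted p of 0.422 for Trf and 0.35 for Slc48a1. Within p21+/Tert mice alone (T-HCC662 and T-HCC663 against T-HCC941 and T-HCA992), Ftl1 was called (log2 difference 1.63, adjusted p = 0.0446), and Trf and Slc48a1 were not (adjusted p of 0.126 and 0.313). Hamp was lower in the Ctnnb1 tumors by -2.2 on the log2 scale (SE 0.83), without passing the test (adjusted p = 0.102), and T-HCC663 at 45.1 CPM lay above TCi-HCC981 at 22.5.

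Some hepatocyte genes moved with Trf between the classes, 3 of the 8 markers measured, beside 12.5% of all genes called. The sum of 8 hepatocyte markers was 18459.7 and 34334 CPM in the Ctnnb1 tumors and 80555 to 103480.4 CPM in the others, where Alb made up most of it. Alb (log2 difference -2.47, adjusted p = 0.0394), Serpina1a (-1.94) and the urea cycle gene Cps1 (-3.13) were called lower in the former. Fgb (-2.24), Apoa1 (-0.78), Hnf4a (-0.33), Ttr (-0.05) and Tat (-0.04) were not called. The part of this shift in the level of Trf was not tested. Cp, the plasma ferroxidase ceruloplasmin, moved as Trf did, from 713 and 846 CPM in the Ctnnb1 tumors to between 2245 and 3829.9 CPM in the others (log2 difference -1.81, SE 0.45, adjusted p = 0.0264). Heph, a membrane ferroxidase, was also called lower in Ctnnb1 tumors (log2 difference -4.17, SE 1.25, adjusted p = 0.0493), with 22.5 CPM in TCi-HCC981 and at most 2.08 CPM in every other library. Slc39a8, a zinc and iron importer, was called lower too (log2 difference -0.85, SE 0.22, adjusted p = 0.0295). It was the third gene called lower among 15 tested for iron uptake, reduction and export, beside 12.5% of all genes called.

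The genes of heme synthesis differed between the driver classes. All 12 were tested, and in Ctnnb1 against other tumors 5 were higher and none was lower, beside 12.5% of all genes called. The median log2 difference was 0.79, beside 0 over all genes. Among them were Alad (1.52, SE 0.19, adjusted p = 0.000937), Abcb6 (1.45, SE 0.23, adjusted p = 0.00328), Tmem14c (1.1, SE 0.25, adjusted p = 0.0193) and Alas2 (1.78, SE 0.53, adjusted p = 0.0493). Alad encodes the enzyme of the second step of the pathway, Abcb6 and Tmem14c porphyrin transport proteins, and Alas2 the erythroid form of the first enzyme. The sum of 7 red cell markers, nearly all of it hemoglobin RNA, was 1038 CPM in T-HCC663 and 115 to 564 CPM in the other 5 tumors. Alas2 was 119 CPM in T-HCC662, where that sum was 147, and 42.3 CPM in T-HCC663. It was 11.6 to 31.3 CPM in the other tumors and 34.4 to 142 CPM in livers. The part of red cells in the level of Alas2 was not tested. Alad was 239 CPM in T-HCC663 and 239.5 CPM in T-HCC662, not below their own livers, and 58.8 to 111 CPM in the other tumors, below all livers. Against livers, 8 of the 12 genes were lower in the tumors without Ctnnb1 mutation, where 22.8% of all genes were called, and none was called in the Ctnnb1 tumors, where 8.2% of all genes were. With the mouse as a block, Alad was still called between the classes (adjusted p = 0.0445), and Abcb6 (0.0688), Tmem14c (0.258) and Alas2 (0.68) were not. Over all tumors against livers, Urod (log2 difference -0.69, SE 0.17, adjusted p = 0.0196) and Slc25a38, a mitochondrial glycine carrier (log2 difference -0.78, SE 0.15, adjusted p = 0.00691), were lower, and all 12 genes had a negative log2 difference, with a median of -0.5.

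**Figure D4:**
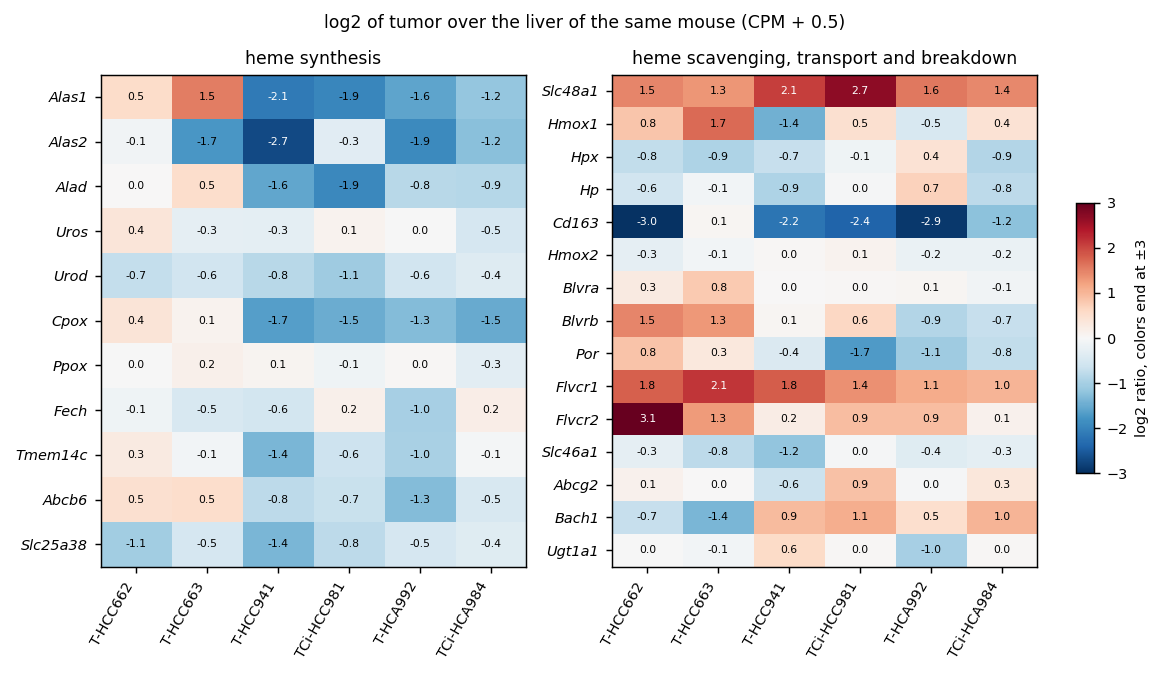
Log2 ratio of each tumor to the liver of the same mouse, on CPM plus 0.5, for 11 heme synthesis genes (left) and for Slc48a1, Hmox1 and the other genes of heme scavenging, transport and breakdown (right); the 2 left columns of each panel are the Ctnnb1 tumors. Slc48a1 and Flvcr1 were positive in all 6 columns, whereas Alas1, Alad, Cpox and Abcb6 were negative in the 4 right columns and not in the 2 left ones.

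Blvrb, which encodes biliverdin reductase B, was higher in Ctnnb1 than in other tumors (log2 difference 1.4, SE 0.31, adjusted p = 0.0172). It was 373 CPM in T-HCC662, 229 in T-HCC663, 240.4 in TCi-HCC981 and 69.3 to 113 CPM in the other 3. The groups thus overlapped by 1 tumor. Por, the reductase that supplies electrons to heme oxygenase and cytochromes P450, was higher as well (log2 difference 1.69, SE 0.49, adjusted p = 0.0425). Hmox1 itself was 33.3 and 80.4 CPM in Ctnnb1 tumors against 8.91 to 84.2 CPM in the others and was not called. Nor was Blvra, which encodes biliverdin reductase A (log2 difference 0.5, SE 0.3, adjusted p = 0.294). Of the genes of hepcidin control, Hfe was higher (0.8, SE 0.2, adjusted p = 0.0267), and Bmpr1a (-1.16, SE 0.3, adjusted p = 0.0295) and Stat3 (-1.6, SE 0.43, adjusted p = 0.0339) were lower. With the mouse as a block, Blvrb was called (adjusted p = 0.0388), but it was not without T-HCC662 (log2 difference 1, adjusted p = 0.162) or with p21+/Tert tumors alone (adjusted p = 0.0643). In the blocked fit Por (0.114), Hfe (0.151), Bmpr1a (0.269), Stat3 (0.319), Cp (0.186), Heph (0.125) and Slc39a8 (0.228) were not called.

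Between the Egfr or Hras tumors and those with neither, edgeR called no gene (0% of 15182, with 1331 at an unadjusted p under 0.05) and DESeq2 105, 1 of them a member. The members with an unadjusted p under 0.05 were Slc48a1, at 304 and 445 CPM against 182 and 209 CPM, Hamp, at 22.5 and 72.6 CPM against 97.2 and 562 CPM, and Tfrc, at 24.1 and 39.4 CPM against 52.5 and 58.7 CPM. The pairs did not overlap for these 3 genes, nor for Ftl1 (1661 and 2239 CPM against 1253 and 1526 CPM). With 2 tumors a side this arises easily by chance, and its share over all genes was not measured. Both Egfr or Hras tumors are named carcinomas and both others adenomas, so driver mutation and histology cannot be told apart here.

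Over the 12 libraries, the genes with patterns most like each member were listed by Pearson's r of log2(CPM + 1), among 10540 genes with a mean of at least 5 CPM. The libraries share the split between tumors and livers, so these values are a description. Hamp was most like Rsc1a1 (r = 0.979), which lies within Ddi2 (0.965), and like the bile acid transporter gene Slc10a1 (0.972). Slc48a1 was most like Cpe (0.978), Lpin3 (0.977) and the zinc importer gene Slc39a4 (0.963). Hamp2 was most like Ap1g1 (0.921) and Gdf2 (0.906), which encodes BMP9, and Tfr2 like Fam47e (0.946). Ftl1 was most like Cebpe (0.961), Trf like Tcf12 (0.938), Fth1 like Tnfaip8l1 (0.917), Slc40a1 like the dendritic cell gene Clec9a (0.911) and Tfrc like Jag1 (0.868). Hmox1 was most like Ear2, Ear3 and Ear12 (0.901 each), whose counts cannot be told apart.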

How the data were processed

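Poly(A) RNA of 6 tumors and 6 non-tumoral livers was sequenced for the authors as paired ends. Further tumors of the study were not analysed here. Reads were aligned by the authors with Subread to mm10 with an added mCherry sequence and counted per gene with featureCounts 1.6.4. The deposited values are whole-number counts for 24421 symbols per library, without normalization. The annotation release, strandedness and treatment of reads with several alignments are not given in the sources used here. Hba-a1 and Hba-a2 held equal counts in 12 of 12 libraries, and Hba-a2 was left out of marker sums.

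Groups came from the labels and driver classes from the study's text. The members and lists were chosen with earlier results of these data known. Counts were scaled and tested with edgeR 4.0.16 (TMM, filterByExpr, quasi-likelihood, Benjamini-Hochberg adjustment at 0.05) in R 4.3.3. All tumors against livers used tissue alone, and the other comparisons used all 12 libraries in models of 4 groups or of livers and 3 driver classes. The study itself used DESeq2 and adjusted for run times, which are not given per sample. The SE is the log2 fold change over the square root of F. CPM are counts per 1000000 of the scaled library size. Named genes are all members, the list genes called in tumors against livers or between Ctnnb1 and other tumors, and for each member genes among the 3 of highest r. Further genes of the lists were named after their values were seen. Some items are not reported here.

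Tumor and liver of a number were taken to come from 1 animal, in the case of NT662 only by elimination. Their deviations from the group means correlated at 0.0416 to 0.547, with a median of 0.317, against -0.066 for livers of other mice. Transcript lengths (GENCODE M21, longest principal form) and sequences were read with Biopython 1.88. Libraries of a group differed by at least 74.5 times the variance that sampling noise gives. The labels do not say more of the replicates than the animal. Apart from the fits blocked on the mouse, the p-values treat the 12 libraries as independent, although tumor and liver are paired. For the driver classes the spread was estimated over livers and tumors together. The fits were tested on simulated data, where 32% of 2-fold and 95% of 8-fold changes were found for tumors against livers. Between Ctnnb1 and other tumors the shares were 1% and 88%. The simulated spread was estimated on tissue alone, so it counted differences between driver classes as noise, and pairing was not simulated. These shares therefore do not give the sensitivity of the driver class fit to the real data, which called Slc48a1 at 1.62-fold. Differences of about 2-fold could still be missed there. Alternatives were RLE size factors, DESeq2 1.42.0, no filter on low counts, the mouse as a block, fewer libraries and both hepcidin genes summed.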

Additional observations from a re-analysis of the deposited data

Results flagged for a closer look

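Among 40 groups of member values, 4 held a library far from the others by Dixon's test at the 95% level, where chance alone flags about 1 in 20. Hamp was 562 CPM in TCi-HCA984, the next tumor being at 97.2. Hamp2 was 72.7 CPM in NT992, the next liver being at 27.4. Slc40a1 was 335 CPM in TCi-HCC981, the next tumor being at 168, and Hmox1 was 60.2 CPM in NT981, the liver of the same mouse, the next liver being at 26.6.

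The difference between Ctnnb1 and other tumors passed the test for Ftl1 (log2 difference 1.57), Slc48a1 (-0.7) and Trf (-1.8). None of these passed in the fit blocked on the mouse (adjusted p of 0.367, 0.35 and 0.422).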

How the results depend on the processing

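Hamp in tumors against livers kept its direction and call under each of 8 other settings, with an adjusted p of at most 0.0462, and Slc48a1 did so as well. Over all comparisons, called members kept their call in 94 cases under another setting and lost it in 17, libraries left out singly apart, and none reversed. The number of members called moved by over 1.5 times as follows, and the cause was not tested. With DESeq2 it was 4 for Ctnnb1 tumors against livers (2 by edgeR), 1 for p21+/TertCi tumors (0) and 1 for Egfr or Hras tumors against those with neither (0). DESeq2 also called 2407 genes in tumors against livers, 2109 within p21+/Tert mice, 2126 in Ctnnb1 tumors against livers and 3111 between Ctnnb1 and other tumors, each over 1.5 times the count by edgeR. Without the filter on low counts 3 members were called for other tumors against livers (5 with it) and 1 for Ctnnb1 against other tumors (3 with it). The latter was 1 with p21+/Tert tumors alone, a setting chosen after seeing the data like those that left out acute phase livers or a whole mouse, and 0 with only the 6 tumors in the fit.

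The mouse entered as a block in the replicate block fit, since tumor and liver were taken to come from 1 animal. It left 0 members called for Ctnnb1 against other tumors and 4 for tumors against livers, as without the pairing. Beside the calls named in the results, it turned the interaction of Tfr2 to -0.09 and the log2 difference of Slc40a1 in tumors against livers to -0.02. Slc40a1 was also negative without both libraries of the mouse of TCi-HCC981 (-0.09) and without the 2 acute phase livers (-0.03).

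Leaving out 1 library at a time gave 2 to 4 members called for tumors against livers, 1 to 4 within p21+/Tert mice, 0 to 1 within p21+/TertCi mice, 1 to 2 for Ctnnb1 tumors against livers, 2 to 5 for other tumors against livers and 0 to 2 between them. The number called over all genes moved too, from 863 to 1988 for tumors against livers and from 240 to 1192 within p21+/Tert mice. The interaction ranged from -1.42 to 3.25 for Hamp, from -0.2 to 1.05 for Slc48a1 and from -0.86 to 0.7 for Tfr2, and Slc40a1 in tumors against livers from -0.26 to 0.24. Each group within p21+/TertCi mice held 2 libraries, and a fit without 1 of them assumes that the remaining library varies like the other groups. With 2 to 6 mice a group, log2 differences with an SE of about 0.5 or more, such as those of Hmox1, could not be told from 0 unless large.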
